A study of Mus musculus with 8 samples.

Results

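Transcripts of the mitochondrial ribosomal proteins were measured in cardiac tissue of mice 24 hours after myocardial infarction (MI) or sham operation. Members were all genes with a symbol beginning with Mrpl (large subunit) or Mrps (small subunit) and a digit, found through the RefSeq accession of each probe. The array held 99 probes for 78 members of 20145 genes with a probe, 49 of the large subunit and 29 of the small subunit. One probe per gene was used, the brightest among those well above background on 4 or more of the 8 arrays. This left 77 members, 48 of the large and 29 of the small subunit, of 15156 genes with such a probe. The member without a usable probe was Mrpl21, whose probe was well above background on none of the arrays. Its processed signals ranged from 2.29 to 5.67, while the lowest signal of a retained member on any array was 183. Of the 77 retained members, 76 were well above background on all 8 arrays and Mrpl54 on 7, because its spot in MI mouse 2 carried an outlier mark and was left out. All mice were male, of genetic background C57BL\6, and adult. In the MI group (n = 4 mice) the anterior interventricular artery was ligated, and the control group (n = 4 mice) had a sham operation. Per the study's methods, mice of both groups had a PET scan with the glucose tracer FDG at 24 hours, for which Acipimox, a drug that lowers free fatty acids in blood, was injected beforehand. Each array carried the RNA of 1 mouse.

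Mitochondria have their own ribosomes, which translate the few proteins still encoded in mitochondrial DNA, all of them hydrophobic core subunits of the respiratory chain and the ATP synthase. The RNA of the mitochondrial ribosome is transcribed inside the organelle, whereas all of its proteins are encoded in the nucleus, made in the cytosol and imported. The small subunit reads the messenger RNA, and the large subunit forms the peptide bond and delivers the new chain to the inner membrane. Some of the proteins descend from ribosomal proteins of bacteria and others are found only in mitochondria. Ventricular myocardium is rich in mitochondria, and inherited defects of several of these proteins, among them those of MRPL3, MRPL44 and MRPS22, cause cardiomyopathy in humans. Many nuclear genes for mitochondrial proteins have promoters with sites for NRF1, for ETS factors such as GABPA, or for YY1.

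Promoter sequence was looked at because the members are scattered over 17 chromosomes and share their function rather than their place. The RefSeq promoter table (GRCm38.p6), which gives 250 bases before and 50 bases after each transcription start, held 69 of the 78 members, 66 of them with 1 start. The letters CCGGAAG (ETS), GCGCA and GCGC separated by any 1 base (NRF1) and AANATGGCG (YY1) were searched on both strands. The 150 bases before the start are printed for 7 members that are described below and have a match there. None of these stretches lies within an annotated gene except that of Mrps21, which overlaps C920021L13Rik. Capitals mark the matched letters, which lie on the other strand for Mrpl12, Mrpl52 and Mrps21.
Mrpl3, chr9:105053118-105053267, plus strand, ETS letters 19 bases before the start: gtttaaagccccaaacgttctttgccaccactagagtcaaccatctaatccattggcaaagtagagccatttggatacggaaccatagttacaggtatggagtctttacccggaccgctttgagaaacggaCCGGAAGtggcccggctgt
Mrpl12, chr11:120484487-120484636, plus strand, NRF1 letters 81 bases before the start: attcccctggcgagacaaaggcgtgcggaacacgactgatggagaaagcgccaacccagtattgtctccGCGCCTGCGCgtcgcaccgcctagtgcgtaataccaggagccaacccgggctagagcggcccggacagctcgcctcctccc
Mrpl39, chr16:84735245-84735394, minus strand, NRF1 letters 125 bases before the start: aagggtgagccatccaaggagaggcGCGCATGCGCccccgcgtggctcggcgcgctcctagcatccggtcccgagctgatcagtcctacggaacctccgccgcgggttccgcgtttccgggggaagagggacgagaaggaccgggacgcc
Mrpl52, chr14:54426759-54426908, plus strand, ETS letters 47 bases before the start: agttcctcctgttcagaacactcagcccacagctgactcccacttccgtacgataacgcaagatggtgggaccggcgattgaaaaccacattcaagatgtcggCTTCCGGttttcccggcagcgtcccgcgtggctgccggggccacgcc
Mrps18a, chr17:46110854-46111003, plus strand, ETS letters 26 bases before the start: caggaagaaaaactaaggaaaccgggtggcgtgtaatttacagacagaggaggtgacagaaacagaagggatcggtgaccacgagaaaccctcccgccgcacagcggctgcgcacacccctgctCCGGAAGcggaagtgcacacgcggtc
Mrps21, chr3:95871515-95871664, minus strand, NRF1 letters 91 bases before the start: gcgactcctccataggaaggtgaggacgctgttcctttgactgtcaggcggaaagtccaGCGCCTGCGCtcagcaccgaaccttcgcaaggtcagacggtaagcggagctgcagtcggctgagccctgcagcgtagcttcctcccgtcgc
Mrps22, chr9:98601680-98601829, minus strand, ETS letters 11 bases before the start: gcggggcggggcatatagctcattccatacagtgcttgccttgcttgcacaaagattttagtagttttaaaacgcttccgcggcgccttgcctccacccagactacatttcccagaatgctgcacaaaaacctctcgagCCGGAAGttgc

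The ETS letters stood in the promoters of 26 of 69 members (37.7%), against 12.9% of 17492 protein-coding genes in the table. The NRF1 letters stood in 13 members (18.8%, against 7.17% of coding genes) and the YY1 letters in 11 members (15.9%, against 3.64%). At least 1 of the 3 was found in 42 members (60.9%, against 20.9%). The CCAAT box (27 members, 39.1%, against 42.3%) and the E-box CACGTG (5 members, 7.25%, against 8.91%) were about as frequent in members as in other genes. A match describes letters and is not evidence that a factor binds there.

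Another shared feature was a neighbouring coding gene that starts close by on the opposite strand. Such a divergent neighbour with a start within 500 bases was present for 21 members (30.4%), against 7.53% of coding genes. The stretches between the genes are printed for 5 pairs that differ in the kind of partner. None of them overlaps an annotated gene, they are read towards the member, and capitals again mark a match.
Mrpl32 and Psma2, a proteasome subunit gene, chr13:14613038-14613241, minus strand, NRF1 letters 87 bases before the start: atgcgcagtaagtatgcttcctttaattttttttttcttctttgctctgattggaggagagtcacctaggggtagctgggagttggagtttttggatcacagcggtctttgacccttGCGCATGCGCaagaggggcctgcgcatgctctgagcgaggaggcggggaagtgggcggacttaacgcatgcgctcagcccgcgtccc
Mrpl40 and Hira, a histone chaperone gene, chr16:18876638-18876749, minus strand: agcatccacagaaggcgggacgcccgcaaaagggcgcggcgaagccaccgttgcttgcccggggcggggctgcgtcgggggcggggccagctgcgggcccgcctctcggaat
Mrpl46 and Mrps11, a large- and a small-subunit member, chr7:78783090-78783130, minus strand: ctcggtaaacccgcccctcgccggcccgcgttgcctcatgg
Mrpl49 and Fau, the gene of a ubiquitin-like protein fused to a cytosolic ribosomal protein, chr19:6057756-6057946, minus strand: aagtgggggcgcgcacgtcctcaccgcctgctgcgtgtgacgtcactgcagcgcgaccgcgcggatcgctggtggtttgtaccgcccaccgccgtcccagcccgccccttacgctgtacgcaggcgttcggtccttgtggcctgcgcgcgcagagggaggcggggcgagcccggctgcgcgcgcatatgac
Mrps12 and Sars2, the mitochondrial seryl-tRNA synthetase gene, chr7:28741822-28741956, minus strand: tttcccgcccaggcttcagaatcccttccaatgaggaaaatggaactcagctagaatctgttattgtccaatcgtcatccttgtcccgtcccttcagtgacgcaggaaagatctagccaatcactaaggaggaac

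The 8 arrays lay on 1 slide in 2 position rows, each with 2 MI and 2 sham arrays. On MI arrays, 61.4% to 66.4% of the spots gave a signal well above background. On the arrays of sham mice 1 to 4 it was 65.8%, 58.6%, 58.9% and 59.1%. Mean processed signals of the retained members were between 244 and 90143 (median 10938), and no member spot was saturated. Precision is limited by having 4 arrays per group. Intensities were put on a common scale in 2 ways, which did not lead to the same calls, and the scale is named beside each value. The spike-in normalization, which the study used, takes the scale of each array from RNA added before labeling. Scaling to the 75th percentile instead sets each array to the same upper quartile of its own probes. Before scaling, this quartile of the log2 signals was 8.73 to 9.07 on MI arrays. On the arrays of sham mice 1 to 4 it was 9.09, 8.35, 8.51 and 8.43. Percentile scaling thus took more from each MI array than from the arrays of sham mice 2, 3 and 4. Defining markers of cardiomyocytes were present in all mice, and after percentile scaling their summed signal (10 genes) was 77.5% to 94.7% of the sham mean in MI mice and 81.7% to 107.7% in sham mice. Neutrophil markers, with 6 of 7 genes called higher under both scalings, summed to 257.7% to 540.7% in MI mice and 96% to 109.2% in sham mice. Fibroblast markers (7 genes, 0 called under either scaling) summed to 50.6% to 81.7% in MI mice and 90.1% to 116.2% in sham mice. Their median deviation from the sham mean under the spike-in normalization was -1.25 to 0.072 in MI mice, lowest in mouse 2, and overlapped that of sham mice (-0.39 to 0.28). It also overlapped after percentile scaling (-1.07 to -0.093 in MI mice against -0.36 to 0.17 in sham mice). Sums overlapped for monocytes and macrophages (6 genes, 2 called higher under both scalings, 95.5% to 139.2% against 83% to 110.1%). They also did for endothelial cells (5 genes, 85.8% to 95.4% against 78.5% to 126.0%), of which 1 gene was called higher after percentile scaling and 0 under the spike-in normalization. The median deviation of the endothelial genes was higher in MI mice without overlap after percentile scaling (0.13 to 0.20 against -0.053 to 0.052) and overlapped under the spike-in normalization (-0.13 to 0.40 against -0.31 to 0.19). The part of such shifts in the values below was not tested, and in whole tissue fewer cells of a type and less RNA per cell cannot be told apart.

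Most mitochondrial ribosomal protein transcripts had a lower mean in MI than in sham mice, but whether single members passed the test depended on the scaling. Under the spike-in normalization, 0 of 77 members passed an adjusted p of 0.05 in limma in either direction, where 0.355% of all retained probes were called lower and 3.38% higher. The smallest adjusted p of a member was 0.0723, for Mrpl14, and at an unadjusted p under 0.05 there were 12 members lower and 3 higher (4.35% and 11% of all probes). After scaling to the 75th percentile, 20 members were called lower and 0 higher, where 8.84% of all probes were called lower and 8.7% higher. These were 17 of 48 large-subunit members and 3 of 29 small-subunit members. Their log2 fold changes were between -0.41 and -0.70, with adjusted p between 0.00942 and 0.0455 (limma), and none of them was past 2-fold (1.18% of all probes were called lower past 2-fold). Quantile normalization gave 20 members called lower (9.27% of all probes) and normexp with quantile normalization 36 (10.9%). With the values as the authors had normalized them (0.967%) and with a spike-in shift (0.729%) there were 0. Of all probes called, 121 of 1271 were lower under the spike-in normalization and 3010 of 5973 after percentile scaling.

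The median log2 fold change of the 48 large-subunit members was -0.20 (a change of -12.7%) under the spike-in normalization, with 39 below 0, and -0.33 (-20.6%) after percentile scaling, with 43 below 0. For the 29 small-subunit members it was -0.15 (-9.66%) with 23 below 0, and -0.28 (-17.8%) with 25 below 0. Over all retained probes the median was 0.033 with 35.3% below 0 under the spike-in normalization, and -0.022 with 52.6% below 0 after percentile scaling. Member values were lower after percentile scaling by a median of 0.14 on the log2 scale. The log2 fold changes of the members had an SD of 0.20 among themselves under both scalings, beside a median standard error of a single member of 0.14 and 0.12. The order of the members was similar, and the sign of 6 members differed between the scalings (Mrpl9, Mrpl12, Mrpl17, Mrpl54, Mrps2 and Mrps15).

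**Figure D1:**
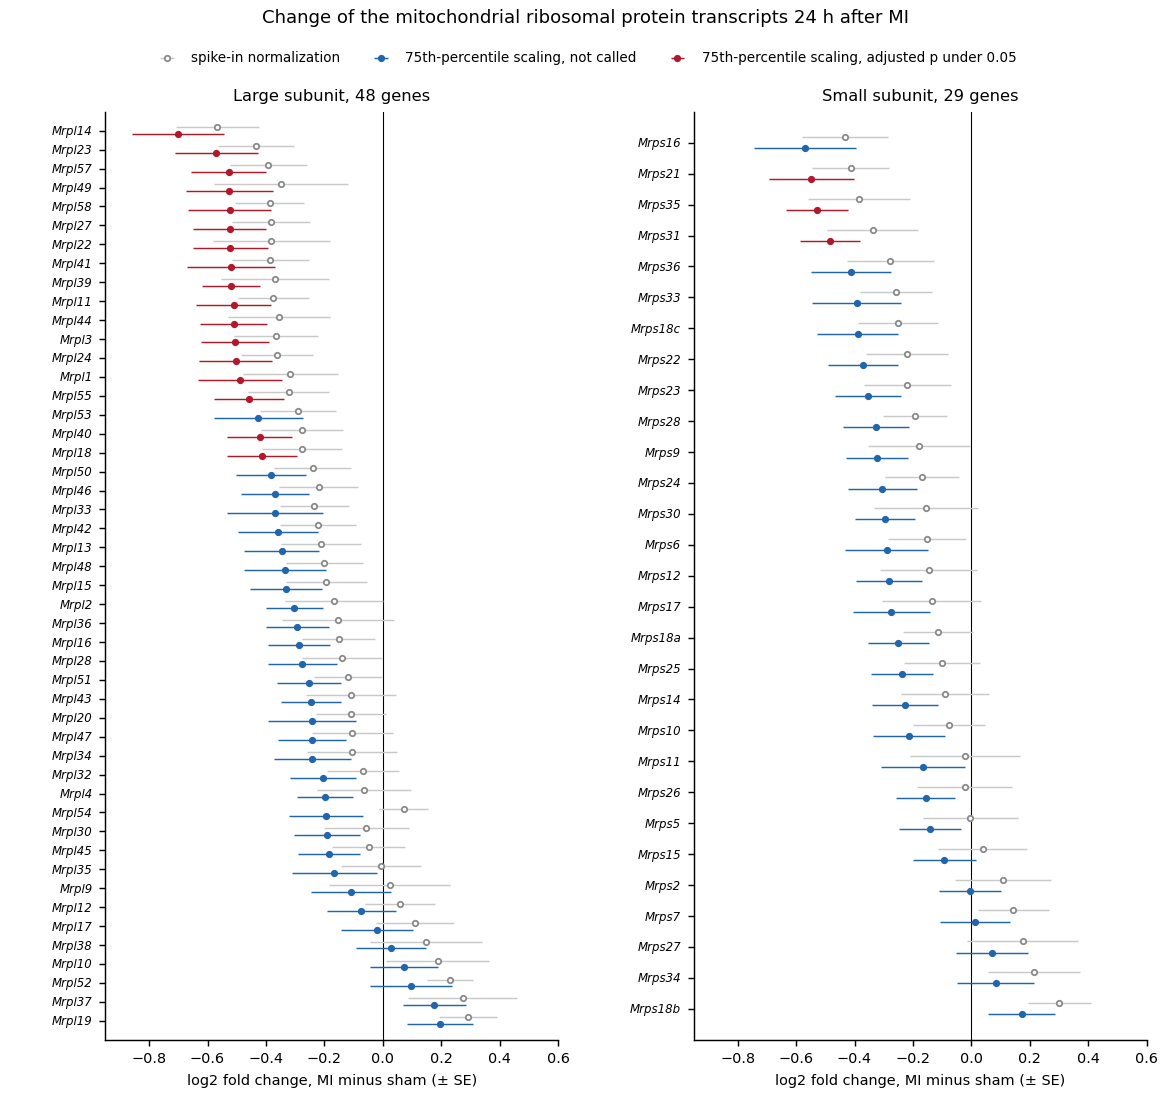
Log2 fold change, MI minus sham (x axis), with its standard error for each of the 48 large-subunit (left) and 29 small-subunit members (right), ordered by the value after scaling to the 75th percentile. Open circles are values under the spike-in normalization, filled circles those after percentile scaling, and the 20 red circles passed an adjusted p of 0.05. Most values lie left of 0 under both scalings, and the called members span -0.41 to -0.70.

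The count of called members changed with the mouse left out, in fits that also had fewer mice. After percentile scaling, the 17 large-subunit calls became 3 without MI mouse 2, 2 without MI mouse 3, 10 without MI mouse 4, 3 without sham mouse 2, 7 without sham mouse 3 and 4 without sham mouse 4, and there were 13 without MI mouse 1 and 20 without sham mouse 1. The 3 small-subunit calls became 8 without sham mouse 1 and 2 without any other single mouse. The medians stayed below 0 in each of these fits, between -0.28 and -0.41 for the large and between -0.21 and -0.33 for the small subunit. With spike-in normalization they were -0.087 to -0.27 and -0.0045 to -0.24, in both cases nearest to 0 without MI mouse 2.

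In single mice, the medians of the 2 subunits were close to each other. Each member was set against its mean in sham mice, and the median deviation was taken over the members in each mouse. Under the spike-in normalization, the median over the large subunit was 0.056, -0.55, -0.025 and -0.23 in MI mice 1 to 4, with sham mice at -0.13 to 0.14. For the small subunit it was 0.12, -0.54, 0.0021 and -0.17 in MI mice, with sham mice again at -0.13 to 0.14. Only MI mice 2 and 4 were below all sham mice, and the median over all retained probes was also lowest among MI mice in mouse 2, at -0.10. MI mouse 2 was also the lowest MI mouse for respiratory chain subunits (-0.47, 82 of 82 genes below their sham mean). The same held for cytosolic ribosomal proteins (-0.24, 77 of 82) and cardiomyocyte markers (-0.39, 9 of 10), but not for neutrophil markers. A low value in MI mouse 2 was thus not particular to the members. Mouse 2 had 45 of 48 large-subunit and 28 of 29 small-subunit members below their sham mean, and mouse 1 had 17 and 5.

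After percentile scaling the MI mice were close to each other. The large-subunit median was -0.23, -0.30, -0.37 and -0.40 in MI mice 1 to 4, with sham mice at -0.16 to 0.16, and the small-subunit median was -0.16, -0.30, -0.34 and -0.35 against -0.15 to 0.16. Both subunits were thus lower in each MI mouse than in any sham mouse, although for the small subunit the gap between MI mouse 1 and sham mouse 1 was small. Below their sham mean in all 4 MI mice were 38 large-subunit and 23 small-subunit members, against 17 and 5 under the spike-in normalization. The difference of the medians, large minus small subunit, was -0.067 to -0.0086 in MI mice and -0.010 to 0.0016 in sham mice, so the groups overlapped on it.

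**Figure D2:**
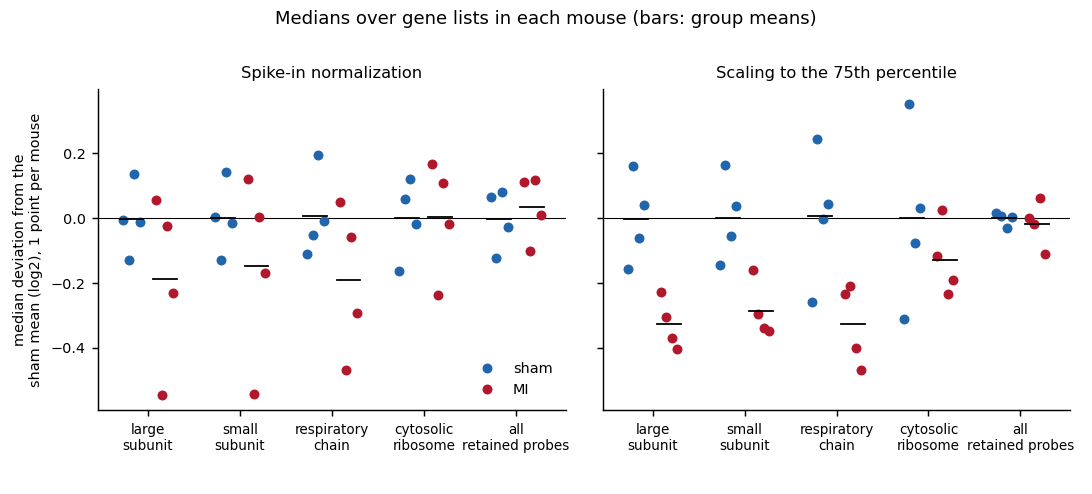
Median deviation from the sham mean (y axis, log2) over the large and the small mitoribosomal subunit, nuclear-encoded respiratory chain subunits, cytosolic ribosomal proteins and all retained probes, with 1 point per mouse and bars for group means (n = 4 mice per group). Under the spike-in normalization (left) the MI mice spread from 0.056 to -0.55 for the large subunit, and after percentile scaling (right) from -0.23 to -0.40, below all sham mice.

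Within each position row the direction was the same. In row 1 (MI and sham mice 1 and 2) the median log2 fold change was -0.18 for the large and -0.17 for the small subunit under the spike-in normalization, and -0.28 and -0.25 after percentile scaling. In row 2 (mice 3 and 4) it was -0.21 and -0.11, and -0.40 and -0.29.

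The large-subunit member with the lowest log2 fold change was Mrpl14 (chr17:45685722-45698495), a protein with a bacterial counterpart on the face of the large subunit that meets the small one. Its log2 values under the spike-in normalization were 15.96, 15.34, 15.71 and 15.68 in MI mice 1 to 4 and 16.02, 16.30, 16.45 and 16.19 in sham mice. All MI mice were below all sham mice, with the highest MI value just under the lowest sham value. MI and sham mice differed by -0.57 on the log2 scale (standard error 0.14, limma adjusted p = 0.0723; exact permutation p = 0.0286, the smallest that 4 against 4 mice can give). After percentile scaling it was -0.70 (standard error 0.16, adjusted p = 0.0179), a change of -38.5%.

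Mrpl23, whose bacterial counterpart lies at the exit of the peptide tunnel, had values of 14.86, 14.29, 14.66 and 14.73 in MI mice and 14.92, 15.09, 15.28 and 14.99 in sham mice. The log2 fold change was -0.43 (adjusted p = 0.132) under the spike-in normalization and -0.57 (adjusted p = 0.0263) after percentile scaling, with groups that did not overlap in either case. Mrpl57, a protein found only in mitochondrial ribosomes, had values of 14.81, 14.18, 14.66 and 14.48 in MI mice and 14.83, 14.88, 15.06 and 14.92 in sham mice. It fell by 0.53 on the log2 scale after percentile scaling (adjusted p = 0.0230) and did not pass under the spike-in normalization (-0.39, adjusted p = 0.176). Mrpl58, a peptidyl-tRNA hydrolase that became part of the mitochondrial ribosome, behaved alike, with -0.39 (adjusted p = 0.138) and -0.52 (adjusted p = 0.0351). Under the spike-in normalization, groups did not overlap for these 4 genes and for Mrpl24, Mrpl27 and Mrps21, all lower in MI mice. For Mrpl58 the highest MI value (14.377) was only just under the lowest sham value (14.379). These are 7 of 77 members, against 2.39% of all probes. After percentile scaling MI mice were below sham mice without overlap for 44 members (12.7% of all probes) and above them for 1 (11% of all probes), whereas under the spike-in normalization no member was above (6.65% of all probes).

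Among members linked to cardiomyopathy, Mrpl3, a protein near the site of peptide bond formation with ETS letters just before its start, had values of 13.56, 12.84, 13.27 and 13.23 in MI mice and 13.58, 13.44, 13.77 and 13.57 in sham mice. MI mouse 1 lay within the sham range and the others below it. After percentile scaling the values were 13.31, 13.14, 12.96 and 13.09 against 13.47, 13.78, 13.62 and 13.66, and all MI mice were below all sham mice (log2 fold change -0.51, standard error 0.12, adjusted p = 0.0194; -0.37, adjusted p = 0.259 under the spike-in normalization). Mrpl44, a protein with an RNase III-like fold found only in mitochondria, had a log2 fold change of -0.36 (adjusted p = 0.395) under the spike-in normalization and -0.51 (adjusted p = 0.0171) after percentile scaling. After percentile scaling its MI mice lay at 11.50 to 11.86 and its sham mice at 12.06 to 12.30. The lowest adjusted p of any member after percentile scaling, 0.00942, was that of Mrpl39, which was chosen for description after its values were seen (11.98, 11.76, 11.85 and 11.90 in MI mice and 12.47, 12.36, 12.42 and 12.32 in sham mice, log2 fold change -0.52).

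Mrpl12, Mrpl10 and Mrpl45 did not pass under either scaling. Mrpl12, a protein of the stalk, which recruits translation factors, had values of 15.43, 14.98, 15.47 and 15.10 in MI mice and 15.21, 15.05, 15.26 and 15.22 in sham mice. The log2 fold change was 0.060 (adjusted p = 0.918) under the spike-in normalization and -0.073 (adjusted p = 0.721) after percentile scaling, so its sign depended on the scaling. Mrpl10, at the base of the stalk, had 0.19 (adjusted p = 0.752) and 0.074 (adjusted p = 0.713). Mrpl45, which anchors the ribosome to the inner membrane, had -0.048 (adjusted p = 0.939) and -0.18 (adjusted p = 0.274). Mrpl41, a mitochondria-specific protein, had -0.38 (adjusted p = 0.187) and -0.52 (adjusted p = 0.0431).

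The large-subunit members with the highest log2 fold changes under the spike-in normalization were Mrpl19 (0.29), Mrpl37 (0.27), Mrpl52 (0.23), Mrpl10 (0.19) and Mrpl38 (0.15). None of them was called under either scaling, and adjusted p was between 0.191 and 0.849 under the spike-in normalization and between 0.279 and 0.902 after percentile scaling. Mrpl19, with a bacterial counterpart, had values of 11.15, 10.70, 11.01 and 10.93 in MI mice and 10.69, 10.53, 10.73 and 10.67 in sham mice. MI mouse 2 lay among the sham mice and the other MI mice above them. Mrpl52, a mitochondria-specific protein with ETS letters before its start, had values of 15.19, 14.94, 15.20 and 15.17 in MI mice and 14.81, 14.88, 14.99 and 14.91 in sham mice, again with mouse 2 alone inside the sham range.

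**Figure D3:**
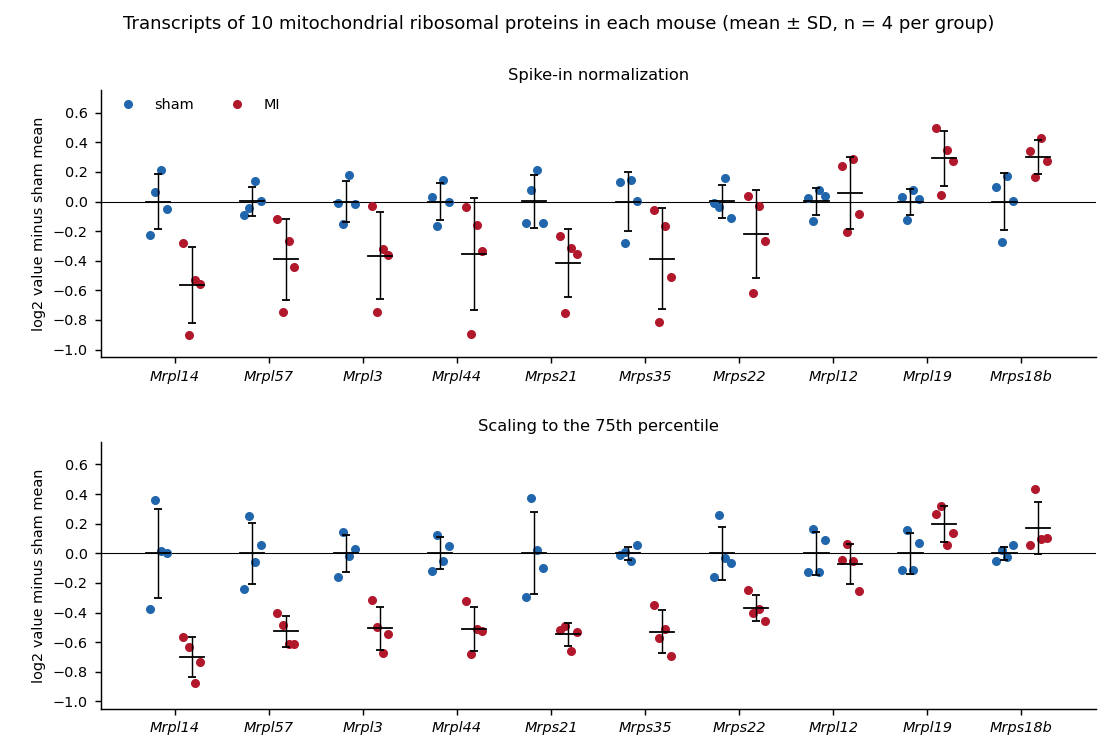
Values of 10 members in each mouse as the difference from the sham mean (y axis, log2) under the spike-in normalization (top) and after scaling to the 75th percentile (bottom), with points for mice, horizontal bars for group means and vertical bars for the SD (n = 4 mice per group). After percentile scaling, MI mice lie below sham mice for the first 7 genes shown, while Mrpl12 and Mrpl19 overlap. For Mrps18b the MI mice lie above, the lowest of them only just.

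In the small subunit, 3 members were called lower after percentile scaling. Mrps21, whose bacterial counterpart takes part in initiation, had values of 15.35, 14.83, 15.26 and 15.22 in MI mice and 15.43, 15.65, 15.79 and 15.43 in sham mice under the spike-in normalization. The groups did not overlap (log2 fold change -0.41, standard error 0.13, adjusted p = 0.157 in limma), and percentile scaling gave -0.55 (standard error 0.15, adjusted p = 0.0319). Mrps35, found only in mitochondrial ribosomes, had values of 12.89, 12.67, 12.73 and 12.54 in MI mice and 13.22, 13.24, 13.18 and 13.29 in sham mice after percentile scaling. The sham mice were close to each other and all MI mice below them (log2 fold change -0.53, standard error 0.11, adjusted p = 0.0116). Under the spike-in normalization its groups overlapped (-0.38, adjusted p = 0.342). Mrps31, also mitochondria-specific, had -0.34 (adjusted p = 0.357) under the spike-in normalization and -0.48 (adjusted p = 0.0143) after percentile scaling.

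The member of the small subunit with the lowest log2 fold change was Mrps16, which has a bacterial counterpart, and it did not pass under either scaling (-0.43, adjusted p = 0.181, and -0.57, adjusted p = 0.0535). Mrps22, a mitochondria-specific protein whose gene is mutated in some cardiomyopathies and carries ETS letters just before its start, had values of 11.46, 11.30, 11.33 and 11.25 in MI mice and 11.54, 11.96, 11.67 and 11.64 in sham mice after percentile scaling. These did not overlap, but the adjusted p was 0.0619 (log2 fold change -0.37), and under the spike-in normalization it was 0.565 (-0.22). Mrps12, a protein of the decoding site, had -0.15 (adjusted p = 0.816) and -0.28 (adjusted p = 0.120). Mrps5, also next to the messenger RNA channel, had -0.0041 (adjusted p = 0.996) and -0.14 (adjusted p = 0.404). Mrps36, which has since been assigned to the 2-oxoglutarate dehydrogenase complex, had -0.28 (adjusted p = 0.448) and -0.41 (adjusted p = 0.0690).

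The 3 paralogs of bacterial ribosomal protein S18 differed in direction. Mrps18c, the closest to the bacterial protein, had log2 fold changes of -0.25 (adjusted p = 0.457) and -0.39 (adjusted p = 0.0871), and Mrps18a had -0.11 (adjusted p = 0.794) and -0.25 (adjusted p = 0.140). Mrps18b had values of 14.27, 14.10, 14.37 and 14.21 in MI mice and 14.03, 13.66, 14.11 and 13.94 in sham mice. Its log2 fold change was 0.30 (adjusted p = 0.204), the highest of all members under the spike-in normalization, and 0.17 (adjusted p = 0.342) after percentile scaling. There its MI mice were all above its sham mice, but MI mouse 1 (14.04) only just above sham mouse 4 (14.037). None of the 3 was called. In structures of the mitochondrial ribosome, Mrps18a and Mrps30 sit in the large subunit despite their names. Mrps30 had -0.16 (adjusted p = 0.818) and -0.30 (adjusted p = 0.0790).

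Other small-subunit members with high values were Mrps34 (0.21, adjusted p = 0.639), Mrps27 (0.18, adjusted p = 0.800), Mrps7 (0.14, adjusted p = 0.710) and Mrps2 (0.11, adjusted p = 0.882) under the spike-in normalization. After percentile scaling they lay between -0.0044 and 0.083.

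Members with and without a bacterial counterpart were compared side by side. For the 44 members with one, the median log2 fold change was -0.15 under the spike-in normalization and -0.28 after percentile scaling, with 10 called lower after percentile scaling. For the 33 members listed as without one it was -0.22 and -0.36, also with 10 called lower. That list held Mrps36, and also Mrps18a and Mrps18b, although both are paralogs of a bacterial ribosomal protein. Members with the ETS letters had a median of -0.22 under the spike-in normalization and -0.37 after percentile scaling, against -0.15 and -0.29 for those without them. With the NRF1 letters the medians were -0.068 and -0.20, against -0.17 and -0.30 without, and with the YY1 letters -0.15 and -0.29, against -0.18 and -0.32 without. No test was made of these differences.

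Of the members, 21 had several retained probes. The fold changes of their probes had the same sign for 17 of them under the spike-in normalization and for 16 after percentile scaling, with a median gap of 0.094 on the log2 scale. The widest gap, 0.45, was that of Mrpl41, whose second probe had a mean signal of only 85.3 against 28380 and a log2 fold change of 0.062. Both probes were called lower after percentile scaling for Mrpl27 (-0.52 and -0.60, adjusted p = 0.0216 and 0.0110), Mrpl40 (-0.42 and -0.43) and Mrpl49 (-0.52 and -0.39), while for Mrpl22 and Mrpl41 the brighter probe alone was. The dimmer probe of Mrps36 was called lower after percentile scaling (-0.41, adjusted p = 0.0441) while the brighter was not. The dimmer probe of Mrps18b was called higher after percentile scaling (0.45, adjusted p = 0.0190), in contrast to the brighter one.

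Proteins of the mitochondrial ribosome with other names were measured as well. Dap3, a GTP-binding protein of the small subunit, had log2 fold changes of -0.14 (adjusted p = 0.832) under the spike-in normalization and -0.27 (adjusted p = 0.0745) after percentile scaling. Its values after percentile scaling were 14.32, 14.24, 14.25 and 14.15 in MI mice and 14.50, 14.52, 14.53 and 14.50 in sham mice, without overlap. Ptcd3, an RNA-binding protein of the small subunit, had -0.21 (adjusted p = 0.699) and -0.34 (adjusted p = 0.0634). Chchd1 had -0.28 and -0.42, Aurkaip1 -0.21 and -0.34, and Gadd45gip1, of the large subunit, 0.042 and -0.090. None of these 5 was called under either scaling.

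The machinery that builds and feeds the mitochondrial ribosome contained called genes after percentile scaling but not under the spike-in normalization. The counts below stand beside 8.84% of all retained probes called lower and 8.7% called higher after percentile scaling. Of 24 assembly factors, 10 were called lower and 0 higher after percentile scaling, with a median log2 fold change of -0.33 (-0.14 under the spike-in normalization, 0 called). The smallest adjusted p were those of Tfb1m, the methyltransferase that modifies the small ribosomal RNA (-1.19, adjusted p = 0.00425), Mettl15, another small-subunit RNA methyltransferase (-0.78, adjusted p = 0.00643), and Ngrn, an RNA-binding assembly factor (-0.56, adjusted p = 0.0131). With spike-in normalization the same genes had -0.91 (adjusted p = 0.0537), -0.41 (adjusted p = 0.146) and -0.41 (adjusted p = 0.259). Fitted on the deposited log2 values, Tfb1m was called lower (-1.06, adjusted p = 0.0118) and Myc, described below, higher (1.23, adjusted p = 0.00698). Tfb1m, the only assembly factor called past 2-fold after percentile scaling, had values of 9.46 to 10.20 in MI mice and 10.96 to 11.22 in sham mice after percentile scaling.

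Of 12 translation factors, 3 were called lower after percentile scaling. These were the release factor gene Mtrf1 (-0.85, adjusted p = 0.0102), the elongation factor gene Gfm1 (-0.35, adjusted p = 0.0377) and Mtfmt, which formylates the initiator methionine (-0.35, adjusted p = 0.0434). Of 16 mitochondrial aminoacyl-tRNA synthetases, 3 were called lower, among them Hars2 (-0.50, adjusted p = 0.0204) and Fars2 (-0.44, adjusted p = 0.0213), with a median over the list of -0.25 (-0.10 under the spike-in normalization). Of 7 genes for mitochondrial transcription and messenger RNA stability, Tefm (-0.59, adjusted p = 0.0241) and Tfb2m (-0.43, adjusted p = 0.0435) were called lower. None of these genes was called under the spike-in normalization. Among 7 regulators of mitochondrial biogenesis, Gabpa, the ETS factor, was called lower (-0.45, adjusted p = 0.0477) and Myc higher (1.15, adjusted p = 0.0423) after percentile scaling, and neither under the spike-in normalization (-0.24, adjusted p = 0.573, and 0.88, adjusted p = 0.0557). Nrf1 had 0.12 (adjusted p = 0.792) and 0.026 (adjusted p = 0.899), and Yy1 -0.063 (adjusted p = 0.940) and -0.21 (adjusted p = 0.222).

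The members were set beside subunits of the respiratory chain and ATP synthase and beside the ribosome of the cytosol. Nuclear-encoded respiratory chain and ATP synthase subunits (82 retained genes) had a median log2 fold change of -0.19, with 76 below 0, under the spike-in normalization. After percentile scaling it was -0.33, with 80 below 0, and 6 were called lower, a share no larger than that of all probes (8.84%). Under quantile normalization 11 were called lower (13.4%, against 9.27% of all probes and 26.0% of the members). Normexp with quantile normalization gave 30 (36.6%, against 10.9% of all probes and 46.8% of the members). The smallest adjusted p after percentile scaling were those of Cox7a2l (-0.52, adjusted p = 0.0326), Atp5c1 (-0.43, adjusted p = 0.0343) and Ndufa7 (-0.48, adjusted p = 0.0421). Cytosolic ribosomal proteins (82 retained genes) had a median of -0.0012, with 41 below 0, and -0.13, with 66 below 0, and 0 were called lower under either scaling. Rpl3 and Rpl7l1 were called higher under the spike-in normalization (0.55, adjusted p = 0.0215, and 0.46, adjusted p = 0.0377), and Rpl7l1 alone after percentile scaling (0.53, adjusted p = 0.0142). In single mice after percentile scaling, the respiratory chain median was -0.21 to -0.47 in MI mice and -0.26 to 0.24 in sham mice, and that of cytosolic ribosomal proteins -0.24 to 0.027 and -0.31 to 0.35. With spike-in normalization these were -0.47 to 0.051 and -0.11 to 0.20, and -0.24 to 0.17 and -0.16 to 0.12. MI and sham mice thus overlapped for both lists under both scalings. After percentile scaling, MI mice were below sham mice without overlap for 18 of 82 respiratory chain and 1 of 82 cytosolic ribosomal genes. This was also so for 12 of 24 assembly factors, 7 of 16 aminoacyl-tRNA synthetases and 3 of 12 translation factors. It held for 3 of 7 transcription and stability genes and 2 of 5 other mitoribosomal proteins. Among members it was 44 of 77, and 12.7% of all probes. The difference between these lists and the mitochondrial ribosomal proteins was not tested. The cardiomyocyte markers had a median log2 fold change of -0.068 under the spike-in normalization, -0.20 after percentile scaling and -0.051 after quantile normalization. Quantile normalization gave medians of -0.28 for the large subunit, -0.23 for the small subunit and -0.20 for respiratory chain subunits. For cytosolic ribosomal proteins it gave -0.034, and over all retained probes -0.039. For the cardiomyocyte markers, values in single mice were also taken. The median deviation of these markers was -0.39 to 0.18 in MI mice and -0.21 to 0.29 in sham mice under the spike-in normalization, and -0.36 to -0.12 and -0.20 to 0.091 after percentile scaling.

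**Figure D4:**
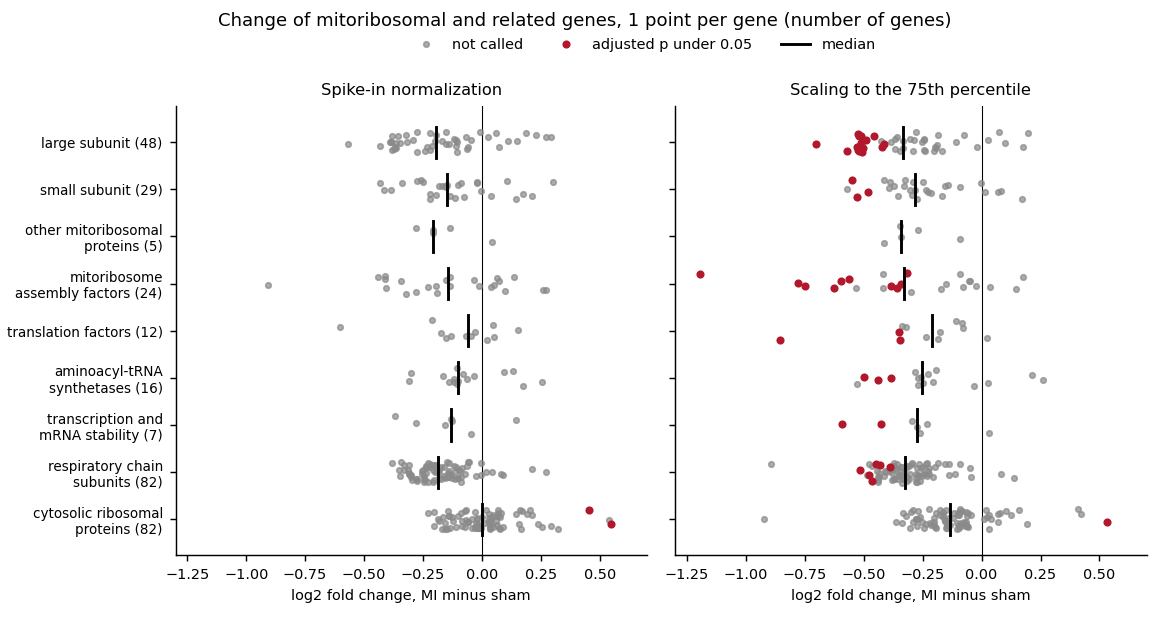
Log2 fold change, MI minus sham (x axis), of each retained gene of the large and small mitoribosomal subunit and of 7 related lists under the spike-in normalization (left) and after scaling to the 75th percentile (right). Each point is a gene, red points passed an adjusted p of 0.05 over all retained probes, and vertical bars are list medians. The medians of the large subunit (-0.20 and -0.33) and of the respiratory chain subunits (-0.19 and -0.33) were close, and that of the cytosolic ribosomal proteins was nearer to 0 (-0.0012 and -0.13).

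The divergent neighbours allowed a comparison of genes that share a start region. In 17 pairs both genes were retained and the partner was no member. Members and partners could differ much in signal. After percentile scaling, log2 values of Eme1 were 3.81 to 5.06, against 12.92 to 13.82 for Mrpl27. Those of Hira were 6.90 to 7.59, against 11.86 to 12.57 for Mrpl40. Fau, in contrast, was brighter than Mrpl49 (17.64 to 18.40 against 10.39 to 11.34). After percentile scaling, the median log2 fold change was -0.28 for the members of these pairs and -0.081 for their partners, with 14 members and 10 partners below 0. With spike-in normalization the medians were -0.15 and 0.049. After percentile scaling 5 of these members and 3 partners were called lower, and 0 partners were called higher. Mrpl14 and its partner Tmem63b, a channel gene, were both called lower after percentile scaling (-0.70 and -0.38, adjusted p = 0.0179 and 0.0217). The other called partners were Ptcd2 (-0.42, adjusted p = 0.0422), beside Mrps27 (0.070), and Cyb5rl (-0.35, adjusted p = 0.0484), beside Mrpl37 (0.18), so that both stood beside members above 0.

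For the pairs printed above, Mrpl40 fell by 0.42 on the log2 scale after percentile scaling (adjusted p = 0.0322) and Hira had 0.13 (adjusted p = 0.628). Mrpl49 fell by 0.52 (adjusted p = 0.0410) and Fau had -0.26 (adjusted p = 0.301). Mrpl32 had -0.20 (adjusted p = 0.255) and Psma2 -0.24 (adjusted p = 0.267), and Mrps12 had -0.28 and Sars2 0.22 (adjusted p = 0.405). For the pair of members, Mrpl46 had -0.37 (adjusted p = 0.0567) and Mrps11 -0.17 (adjusted p = 0.476). With spike-in normalization none of these genes was called, and the log2 fold changes were -0.28 and 0.13 for Mrpl40 and Hira, -0.35 and -0.13 for Mrpl49 and Fau, -0.068 and -0.10 for Mrpl32 and Psma2, -0.15 and 0.25 for Mrps12 and Sars2, and -0.22 and -0.022 for Mrpl46 and Mrps11. The differences within pairs were not tested.

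**Figure D5:**
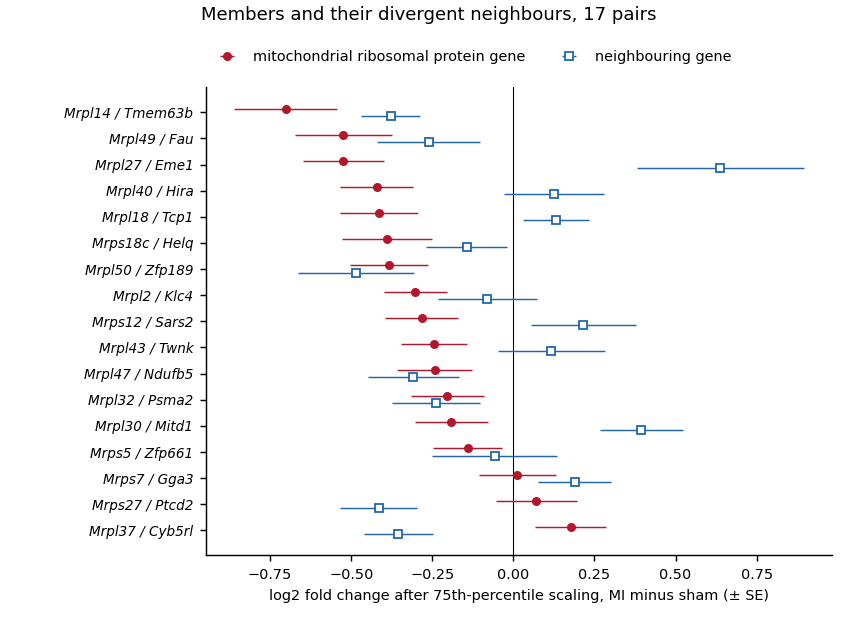
Log2 fold change after scaling to the 75th percentile (x axis) with its standard error for 17 mitochondrial ribosomal protein genes (red circles) and the coding genes that start within 500 bases on the opposite strand (open blue squares), ordered by the member. Members lie mostly left of 0 (14 of 17), while partners, some of them much dimmer than the member, lie on both sides (10 of 17 below 0).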

How the data were processed

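Groups came from the sample labels. Intensities were taken as deposited, that is, as the processed signal that Feature Extraction 11.0.1.1 computes within an array by subtracting background, with nothing done between arrays. Median signals and the detection flags (0 or 1, other values) were also used as deposited. The log2 values deposited by the authors had gone through vsn in limma, fitted on spike-in probes, and served as an alternative.

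Here the vsn model was fitted to 234 spots of 7 spike-in probes with an own implementation. The constants it added to the signals were 166 to 257, those of the authors' values 3.16 to 19.6. Such a constant holds back fold changes of dim probes. The median signal was 10938 for the members and 201 over all retained probes. Shares over all probes under the spike-in normalization thus include many probes with a signal near the constant. For percentile scaling, the 75th percentile of each array's log2 signals was subtracted and the mean of the 8 percentiles added. Outlier spots were left out, spots of 1 probe averaged, and 34038 probes well above background on at least 4 arrays retained.

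MI and sham mice were compared in limma 3.58.1 (R 4.3.3) without covariates, with Benjamini-Hochberg adjustment over all retained probes. A call is an adjusted p under 0.05 at any fold. Permutation tests were exact and two-sided. The scripts were tested on simulated data. Python 3.11.15, numpy 2.4.6, scipy 1.17.1, pandas 2.3.3 and matplotlib 3.10.9 were used.

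Members and lists were chosen with earlier results of these data known. Named members are the 5 highest and 5 lowest of each subunit among those above background on all 8 arrays, a set of members named for their roles, members called if under 15 in a subunit, and of other lists up to 3 called genes of smallest adjusted p and the 5 other mitoribosomal proteins; others are named as examples of a probe or promoter pair. One gene that this rule names is not reported here. Alternatives were a spike-in shift, quantile normalization, the authors' values, normexp with an offset of 50 on median signals (mean signals were not used here), no filter, detection on all 8 arrays, the mean over probes, an unmoderated statistic, blocks, and each mouse left out.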

Additional observations from a re-analysis of the deposited data

Results flagged for a closer look

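In MI mice, the log2 value of Mrpl52 under the spike-in normalization was 14.94 in mouse 2 and between 15.17 and 15.20 in the other 3 mice, so that the gap took up 0.908 of the range of the group. It was the only group of 4 mice with a value so far from the others among 68 groups examined, of which chance would mark about 1 in 20.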

How the results depend on the processing

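The medians of both subunits were below 0 under every alternative run, between -0.16 and -0.33 for the large and between -0.15 and -0.28 for the small subunit with all mice, and their range with each mouse left out is given in the report. The counts of called members depended on the scaling. Called lower in the large subunit were 0 under the spike-in normalization, 17 after scaling to the 75th percentile, 16 after quantile normalization and 25 after normexp with quantile normalization, and in the small subunit 0, 3, 4 and 11 (9.27% and 10.9% of all probes under quantile normalization and normexp). Of the 20 members called after percentile scaling, 19 were also called under quantile normalization and 20 under normexp. The spike-in shift, the authors' values, the filters, the mean over probes, the unmoderated statistic and the position row gave 0 calls. The cause was not tested.

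With the replicate number as a block, 1 large- and 1 small-subunit member were called lower and 2 and 1 higher under the spike-in normalization (2.54% and 12% of all probes), and after percentile scaling, chosen after seeing the data, 2 and 1 lower. Deviations of mice with the same number correlated at 0.272, 0.332, 0.055 and 0.001, so the numbers were not taken to pair the mice, and mice 1 and 2 but not 3 and 4 correlated best with their own number. With each mouse left out under the spike-in normalization, 0 members of either subunit were called lower, and between 0 and 2 large-subunit members higher. With percentile scaling, also run after seeing the data, 2 to 20 large- and 2 to 8 small-subunit members were called lower, in the large subunit 13, 3, 2 and 10 without MI mouse 1, 2, 3 and 4 and 20, 3, 7 and 4 without sham mouse 1, 2, 3 and 4.

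Of 570 values of 30 named members under an alternative, 515 kept direction and call, 41 were called only under the alternative and 14 changed sign. After percentile scaling and normexp the sign changed for Mrpl12 (-0.073 and -0.0090) and Mrps2 (-0.0044 and -0.0077). With a mouse left out, the log2 fold change of Mrpl12 was -0.016 to 0.15 (-0.0012 without MI mouse 1, lowest without MI mouse 3), that of Mrps2 -0.033 (without sham mouse 2) to 0.22, that of Mrpl45 -0.11 to 0.059 (without MI mouse 2; 0.023 without sham mouse 3), that of Mrps12 -0.26 to 0.020 (without MI mouse 2), and that of Mrps5 -0.12 to 0.13 (without MI mouse 2; 0.071, 0.024 and 0.0073 without sham mouse 1, 3 or 4). No named member was called under the spike-in normalization, so no call could be lost. The signal of Mrpl21 was at background on all arrays, so that nothing can be said of it.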
